A study of Mus musculus with 63 samples.

Results

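The Cyp2 genes encode the family 2 cytochrome P450 enzymes. Members were taken by symbol, as every gene of the deposited table whose name begins with Cyp2, a letter and a number, and 40 of the table's 15616 genes were described. They comprised 4 Cyp2a, 2 Cyp2b, 15 Cyp2c, 10 Cyp2d and 3 Cyp2j genes, and 1 gene each of the subfamilies Cyp2e, Cyp2f, Cyp2g, Cyp2r, Cyp2s and Cyp2u. Of these, Cyp2c53-ps and Cyp2d37-ps are named as pseudogenes. In all, 38 were expressed strongly enough to be tested, and Cyp2c65 and Cyp2c53-ps were not.

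Cytochrome P450s of this family are heme enzymes of the endoplasmic reticulum that insert oxygen into drugs, steroids, bile acids and fatty acids, with electrons supplied by P450 oxidoreductase. In liver they are made mainly by hepatocytes, many of them near the central vein. In rodents several members differ strongly between the sexes through the pulsatile or continuous secretion of growth hormone, and others are switched on by nuclear receptors that sense foreign compounds.

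Liver RNA came from mice 10 to 14 weeks old, killed between day 0 and day 14 of a tamoxifen course of 3 daily injections of 1 mg given on days 0 to 2. The 26 KO livers came from males carrying a tamoxifen-activated Cre recombinase driven by albumin gene sequences (Alb-Cre-ERT2) and a lox-flanked Hcfc1 gene on their only X chromosome, so that HCF-1, a nuclear cofactor of transcription factors, could be removed from hepatocytes. The 12 Het livers came from females with the same Cre, 1 lox-flanked and 1 intact Hcfc1 allele. The 25 WT livers came from males that were given tamoxifen as well. Their genotype label reads C57BL/6, while the protocol describes lox carriers without Cre, so effects of Cre and of the deletion cannot be told apart. Females without Cre were not analysed here. Days 0 to 9 had 2 livers per male genotype and days 10 to 14 had 1, except for 2 KO livers on day 14, and Het had 1 liver on each of 12 days.

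Levels are given in RPKM, read density per length of exon and library size, obtained from the deposited log2 values. By estimate, libraries held 21.2M to 55.7M reads in KO, 28.2M to 48.7M in Het and 17.7M to 52.9M in WT over genes of known length. By the same estimate, 1 read over 2000 bases corresponded to 0.00952 to 0.0352 RPKM. Reads were not counted, and their number was inferred from the spacing of low values. Of these values, 38.5% to 48.9% per library lay within 0.05 of a whole read. Mmachc, a cobalamin enzyme gene that depends on HCF-1, stood at 0.185 to 2.02 RPKM in KO livers of days 4 to 14, against 6.79 to 9.37 RPKM in WT livers of those days. Changes are log2 differences relative to the median gene of each library, followed by the standard error, because the median gene itself was higher in KO by 0.33 on the deposited log2 scale on days 3 to 5 and by 0.85 on days 10 to 14. Rises and falls are those with an adjusted p under 0.05 in limma and 1 sign both relative to the median gene and in the deposited values. The libraries of 2 KO livers stood apart in their median value, those of day 13 and an unnumbered one of day 14.

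The Cyp2 family split, with members rising and falling in KO side by side, and 35 of the 38 tested members passed in at least 1 of 5 windows of days. The share of all genes that passed in at least 1 window is not given here, so this count does not set the family apart. On day 0 no member passed in KO against WT, where 0.0327% of all 12221 tested genes were higher and 0.0327% lower, and 1 member, Cyp2d34, had an unadjusted p under 0.05 (also 0 calls on the deposited scale). On days 1 to 2, 2 members rose and 3 fell, against 9.05% and 1.82% of all genes. On days 3 to 5, 13 members rose and 10 fell, against 26.5% and 9.61% of all genes. On days 6 to 9 the counts were 12 and 11, against 35.1% and 18.8% of all genes. By days 10 to 14, 14 members rose and 14 fell, against 38.6% and 11.1% of all genes. The members' median change was -0.15 on days 3 to 5 and -0.34 on days 10 to 14, beside 0.04 and 0.08 over all genes. On the deposited scale alone the split on days 1 to 2 was 4 higher and 3 lower, and relative to the median gene alone it was 2 higher and 7 lower. Of all 12221 tested genes, 1113 were higher and 819 lower relative to the median gene alone. Shares of all genes on the deposited scale alone are not given here or below.

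Cyp2c55, Cyp2d9, Cyp2d12, Cyp2d22, Cyp2d34, Cyp2f2 and Cyp2j6 rose in each of the last 3 windows, 7 members in all. Cyp2c38, Cyp2c50, Cyp2c69, Cyp2e1, Cyp2j5 and Cyp2j9 fell in each of them, 6 in all. Cyp2a12, Cyp2c39, Cyp2d40 and Cyp2g1, 4 members, changed in opposite directions in different windows. Cyp2b13, Cyp2c68 and Cyp2r1, the last of these a vitamin D hydroxylase, had no call in any window. Shares of all genes with these patterns over several windows are not given here, so the counts describe the members only. The libraries carry 1 of 2 sample-sheet codes, B_1 and B_2, whose meaning was not stated. All called members kept their direction within each code, and 3 of the 23 called on days 3 to 5 also passed within B_1 and 16 within B_2. On days 6 to 9, 8 and 17 of 23 passed within B_1 and B_2. All libraries of days 10 to 14 were of B_1, so the code cannot be told apart from those days in a comparison with earlier ones.

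**Figure D1:**
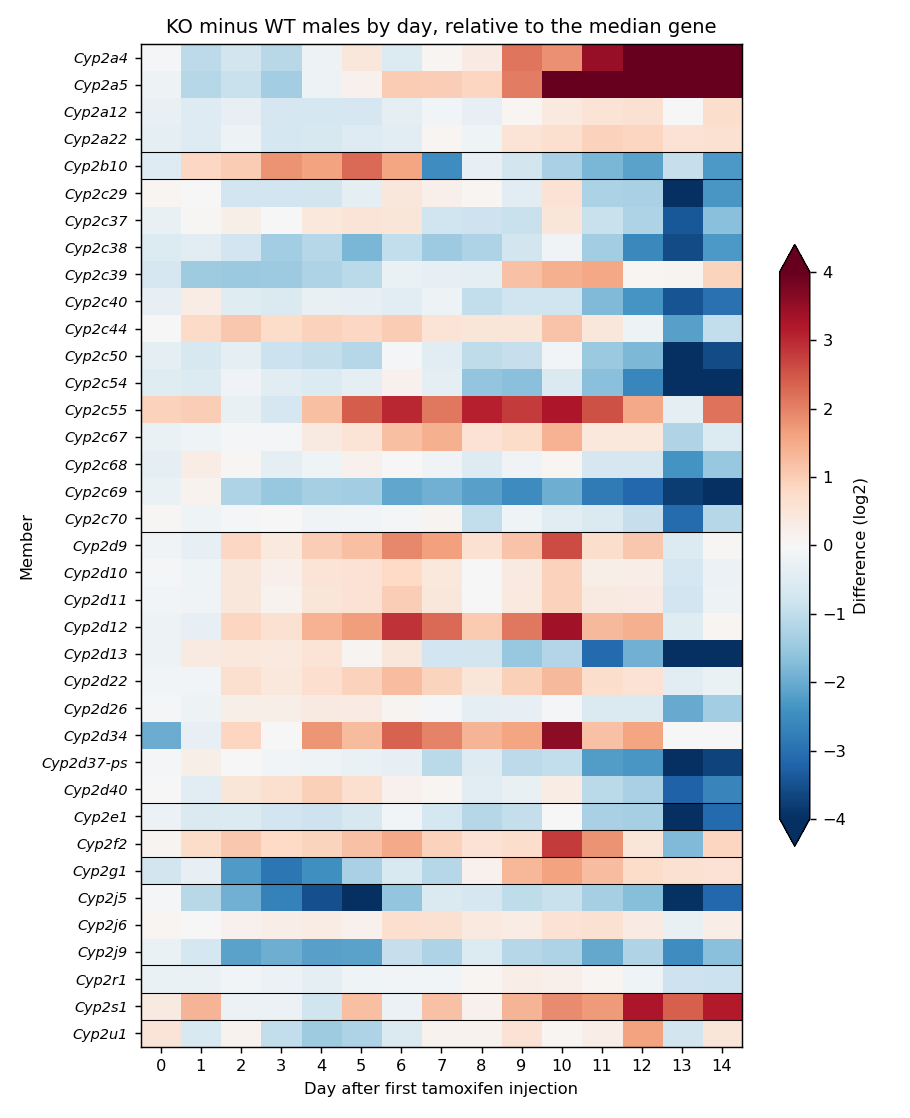
Change of 37 members in KO livers relative to WT livers on each day (columns) as log2 differences relative to the median gene, in subfamily order (rows), red higher in KO and blue lower, with colours ending at 4 in either direction. The Cyp2j5 row is blue from day 1, while Cyp2a4 and Cyp2a5 turn strongly red on days 10 to 14.

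The largest late rises were in the Cyp2a subfamily. All 4 members rose on days 10 to 14, with a median change of 2.48, whereas on days 3 to 5 none rose and 1, Cyp2a12, fell. Of all genes, 38.6% rose on days 10 to 14, and 26.5% rose and 9.61% fell on days 3 to 5. Cyp2a5, a coumarin and nicotine hydroxylase known to increase in injured mouse liver, and Cyp2a4, a steroid hydroxylase that is higher in female liver, led this group. In mm9 Cyp2a4 lies at chr7:27092209-27100107 and Cyp2a5 at chr7:27620324-27628567, both on the plus strand. Their sequences are shown because they are near copies, which limits how reads can be assigned between them. The first pair below runs from coding base 207 to 256, counted from the start of the coding sequence, with differing bases in capitals (T216C, T223C and A256G, Cyp2a4 base first). The second pair is the promoter of each gene in GRCm38.p6, both from RefSeq, from 250 bases before to 50 bases after the start, at chr7:26306942-26307241 for Cyp2a4 and chr7:26835089-26835388 for Cyp2a5, with bases that differ or have no partner in capitals.
Cyp2a4 coding stretch: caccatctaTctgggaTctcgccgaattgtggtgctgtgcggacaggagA
Cyp2a5 coding stretch: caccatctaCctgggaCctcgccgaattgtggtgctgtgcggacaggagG
Cyp2a4 promoter: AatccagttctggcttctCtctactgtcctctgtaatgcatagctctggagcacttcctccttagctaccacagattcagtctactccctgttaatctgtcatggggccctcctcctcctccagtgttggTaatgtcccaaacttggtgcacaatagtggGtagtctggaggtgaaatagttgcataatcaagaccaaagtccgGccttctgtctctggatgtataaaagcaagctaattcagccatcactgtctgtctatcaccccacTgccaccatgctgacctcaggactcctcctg
Cyp2a5 promoter: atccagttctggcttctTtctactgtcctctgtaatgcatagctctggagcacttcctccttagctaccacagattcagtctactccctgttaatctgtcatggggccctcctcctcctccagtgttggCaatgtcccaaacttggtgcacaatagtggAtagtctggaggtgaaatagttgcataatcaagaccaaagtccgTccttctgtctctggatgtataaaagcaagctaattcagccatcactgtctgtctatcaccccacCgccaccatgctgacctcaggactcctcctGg

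The coding sequences differed at 23 of 1485 bases, an identity of 98.5%, and the promoters were identical at 294 of 301 aligned columns. Of all 50-base stretches of coding sequence, the length of the reads, 38.1% held no difference between the genes. Over the whole transcripts, 91.9% of Cyp2a4 stretches and 78.1% of Cyp2a5 stretches lay within 2 mismatches of another Cyp2 gene. How the authors' alignment shared such reads was not given in the sources used here, so the separate level of each gene is uncertain.

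Cyp2a5 measured 1358, 3132, 2602 and 5500 RPKM in the KO livers of days 10, 11, 12 and 13, and 7136 and 6412 RPKM in those of day 14, against 60.0, 73.3, 72.5, 82.9 and 86.0 RPKM in the WT livers of days 10 to 14. Every KO liver stood above every WT liver, and the mean was 4357 ± 2316 RPKM in KO (SD, n = 6) and 75.0 ± 10.2 RPKM in WT (SD, n = 5). Cyp2a5 rose by 4.72 ± 0.28 on days 10 to 14 (limma, adjusted p = 1.86e-13). It had already risen on days 6 to 9, by 1.23 ± 0.23 (adjusted p = 4.68e-05), with 92.9, 262 and 657 RPKM (lowest, median, highest) in KO and 66.1, 107 and 118 RPKM in WT. The change of -0.47 ± 0.26 on days 3 to 5 did not pass (adjusted p = 0.14).

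Cyp2a4 measured 581, 985, 1541 and 3083 RPKM in the KO livers of days 10, 11, 12 and 13, and 3861 and 4174 RPKM in those of day 14, against 134, 59.0, 65.5, 15.1 and 40.9 RPKM in the WT livers of days 10 to 14. The groups did not overlap, and Cyp2a4 rose by 4.24 ± 0.33 (adjusted p = 3.26e-11). On days 6 to 9 the groups overlapped, at 15.2, 47.6 and 309 RPKM in KO and 21.7, 38.4 and 75.0 RPKM in WT, and the change of 0.50 ± 0.27 did not pass (adjusted p = 0.109). Within that window the 2 KO livers of day 9 were the highest, at 289 and 309 RPKM, against 54.0 and 55.3 RPKM in WT of that day. The change between days 3 to 5 and days 10 to 14 was itself tested, and it was 5.19 ± 0.39 for Cyp2a5 and 4.53 ± 0.46 for Cyp2a4 (adjusted p = 6.4e-11 and 1.02e-08).

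The ratio of the pair varied between livers. Up to day 4, Cyp2a4 stood at 5.17% to 8.67% of Cyp2a5 in 10 KO livers and at 4.95% to 6.66% in 10 WT livers. On days 10 to 14 the share was 31.4% to 65.1% in KO livers and 18.2% to 223% in WT livers. In the 12 Het livers it was 85.7% to 250% over all days, with 102% and 110% on days 0 and 1 and a median of 166% on days 10 to 13. Summed over the 4 genes, the subfamily held 2400 to 11795 RPKM in KO livers and 366 to 479 RPKM in WT livers on days 10 to 14.

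**Figure D2:**
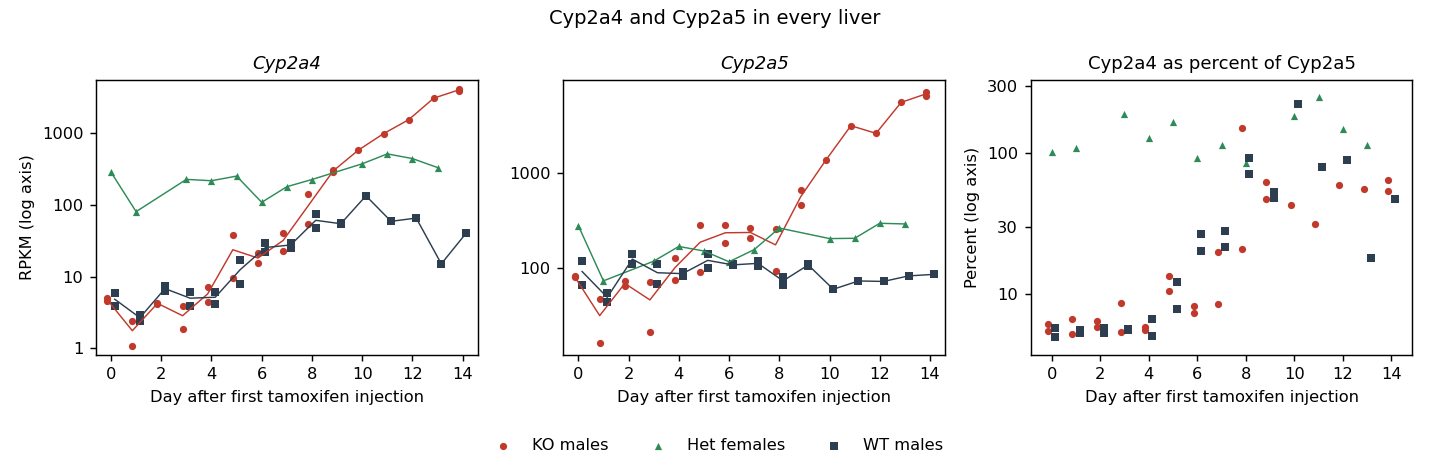
Levels of Cyp2a4 and Cyp2a5 in RPKM and Cyp2a4 as a percentage of Cyp2a5, all on log axes, by day in single KO, Het and WT livers. From day 10 the KO livers lie above 581 RPKM for Cyp2a4 and above 1358 RPKM for Cyp2a5, and no WT liver exceeds 134 RPKM for Cyp2a4.

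The other 2 genes of the subfamily moved less. Cyp2a12, a steroid hydroxylase that is abundant in mouse liver, fell by 0.69 on days 3 to 5 and rose by 0.45 ± 0.12 on days 10 to 14 (adjusted p = 0.00121). Its late levels were 442, 652 and 842 RPKM in KO and 237, 262 and 281 RPKM in WT. Cyp2a22 rose by 0.72 ± 0.17 (adjusted p = 0.000448), with 17.5, 22.2 and 25.7 RPKM in KO and 6.12, 7.79 and 9.73 RPKM in WT. For both genes the late KO livers stood above all WT livers of those days.

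The Cyp2j subfamily held 2 of the 3 members that fell on days 1 to 2. Cyp2j5, an epoxygenase of arachidonic acid that is abundant in mouse liver and kidney, lies at chr4:96295464-96330845 on the minus strand in mm9, and 5.79% of its 50-base stretches lay within 2 mismatches of another Cyp2 gene. In KO livers it measured 69.6 and 66.2 RPKM on day 1 and 47.0 and 47.6 RPKM on day 2, against 139 and 97.8 RPKM and 185 and 165 RPKM in WT livers of those days. No KO liver reached a WT liver, and Cyp2j5 fell by 1.52 ± 0.37 on days 1 to 2 (adjusted p = 0.00614). As the tissue was bulk, fewer cells expressing a gene and less RNA per cell cannot be told apart, here and in all later comparisons.

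In the next window, days 3 to 5, Cyp2j5 measured 5.45, 19.6 and 38.1 RPKM (lowest, median, highest) in KO livers and 139, 154 and 157 RPKM in WT livers. It fell by 3.41 ± 0.30 (adjusted p = 1.34e-09), the largest fall of any member in that window. On days 6 to 9 the groups overlapped, at 27.3, 108 and 153 RPKM in KO and 146, 173 and 185 RPKM in WT, and Cyp2j5 fell by 0.96 ± 0.26 (adjusted p = 0.00228). In the last window they separated again, at 31.3, 74.5 and 131 RPKM in KO and 183, 199 and 206 RPKM in WT, and Cyp2j5 fell by 2.21 ± 0.32 (adjusted p = 1.15e-06). The late fall was smaller than the early one by 1.20 ± 0.44 (adjusted p = 0.0225). That difference lost its call when single libraries were left out, at 0.82 without KO day 5 replicate 1, 0.99 without KO day 3 replicate 2, 0.87 without either day 10 library, 0.98 without either day 11 library and 1.08 without either day 12 library. Where a day had 1 library of a genotype, leaving it out also dropped the other genotype's libraries of that day. Here and below, such results in KO against WT thus concern the whole day and not 1 library.

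Cyp2j5 was low in Het livers of the same days. It measured 216, 110, 28.4, 3.87, 10.3, 6.40, 50.1 and 162 RPKM in the Het livers of days 0, 1, 3, 4, 5, 6, 7 and 8, and 142, 193, 185 and 197 RPKM on days 10, 11, 12 and 13. The 4 lowest values of Het thus fell on days 3 to 6, and from day 10 the values again reached those of day 1 or higher. With 1 liver a day this course was not tested.

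Cyp2j9, which also metabolises arachidonic acid, fell by 1.42 ± 0.23 on days 1 to 2 and fell by 2.09 ± 0.19 on days 3 to 5 (adjusted p = 0.000186 and 2.29e-09). Its levels on days 3 to 5 were 0.577, 0.674 and 1.12 RPKM in KO and 2.10, 2.60 and 2.86 RPKM in WT, without overlap. On days 10 to 14 it fell by 1.72 ± 0.20 (adjusted p = 3.87e-08). Cyp2j6 went the other way and rose by 0.25 to 0.49 in the last 3 windows. It measured 38.1, 40.7 and 49.8 RPKM in KO and 16.9, 19.3 and 22.4 RPKM in WT on days 10 to 14. The late call, at 0.30, was lost without either library of day 10 or of day 11, and the call of days 3 to 5, at 0.25, without WT day 3 replicate 2, WT day 4 replicate 2, WT day 5 replicate 1, KO day 3 replicate 2, KO day 4 replicate 1 or KO day 5 replicate 2.

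**Figure D3:**
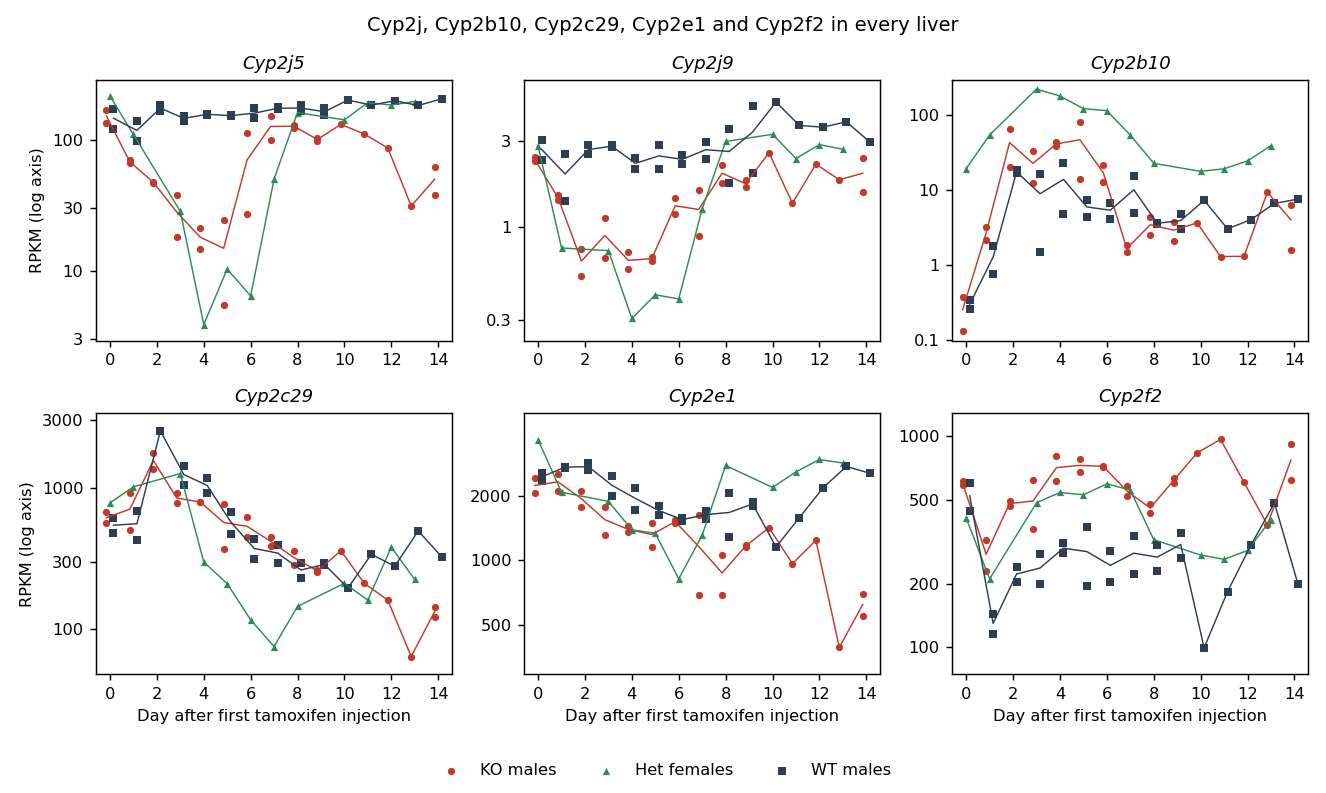
Levels in RPKM on log axes, by day, of Cyp2j5, Cyp2j9, Cyp2b10, Cyp2c29, Cyp2e1 and Cyp2f2 in single KO, Het and WT livers. Cyp2j5 drops to 5.45 RPKM in a KO liver of day 5 and to 3.87 RPKM in the Het liver of day 4, while no WT liver lies under 97.8 RPKM.

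Cyp2b10, an enzyme induced by phenobarbital through the receptor CAR, was higher after tamoxifen than on day 0 in KO and WT. In Het livers Cyp2b10 measured 19.0 RPKM on day 0, 218 RPKM on day 3, and 17.5 and 18.9 RPKM on days 10 and 11. It stood at 0.129 and 0.375 RPKM in KO and at 0.254 and 0.338 RPKM in WT on day 0. By days 3 to 5 it measured 12.1, 35.2 and 78.3 RPKM in KO and 1.46, 6.06 and 22.6 RPKM in WT, with overlapping groups. It rose by 1.89 ± 0.52 in KO relative to WT (adjusted p = 0.0038). The late levels were 1.28, 2.59 and 9.21 RPKM in KO and 3.00, 6.54 and 7.47 RPKM in WT. The change of -1.69 ± 0.56 passed relative to the median gene (adjusted p = 0.00894) but not on the deposited scale, and it became a call, at -2.09, without the 2 KO libraries that stood apart. The change between these windows was -3.58 ± 0.76 (adjusted p = 0.00032). Cyp2b13, a female-specific gene, was listed at 0 in some male libraries and reached 3.15 RPKM in KO and 7.34 RPKM in WT on days 10 to 14.

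Of the 13 Cyp2c genes tested, 2 rose and 8 fell on days 10 to 14, with a median change of -1.34. Earlier, 2 rose and 4 fell on days 3 to 5, with a median of -0.40, and on days 6 to 9, 3 rose and 6 fell. Of all genes, 26.5%, 35.1% and 38.6% rose and 9.61%, 18.8% and 11.1% fell on days 3 to 5, 6 to 9 and 10 to 14. In mouse, Cyp2c enzymes epoxidise or hydroxylate arachidonic acid, steroids and retinoids. Cyp2c54 had the largest late fall of any member, with a change of -3.19 ± 0.16 (adjusted p = 5.57e-15), with 4.74, 25.3 and 59.8 RPKM in KO and 73.7, 149 and 180 RPKM in WT. The KO livers all stood below the WT livers. It was not called on days 3 to 5, at 88.0, 148 and 196 RPKM in KO and 102, 162 and 221 RPKM in WT.

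Cyp2c69, a gene that is higher in female liver, fell by 1.41 ± 0.38 on days 3 to 5 (adjusted p = 0.00315), with -0.88 when WT day 5 replicate 2 was left out. On days 6 to 9 it fell by 2.17 ± 0.33 (adjusted p = 2.85e-06), at 30.9, 50.2 and 111 RPKM in KO and 170, 220 and 304 RPKM in WT. On days 10 to 14 it fell by 3.14 ± 0.40 (adjusted p = 1.83e-07), at 12.7, 21.0 and 62.8 RPKM in KO and 66.1, 145 and 199 RPKM in WT. The groups did not overlap in either of the last 2 windows. On day 0 Cyp2c69 measured 8.96 and 12.0 RPKM in KO and 9.41 and 14.3 RPKM in WT. The late medians of both genotypes were thus above their day 0 levels, and that of WT farther above. These falls are therefore levels lower in KO than in WT, and not a drop in RPKM from day 0.

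Cyp2c50 and Cyp2c40 changed by -2.34 ± 0.15 and -2.27 ± 0.25 on days 10 to 14 (adjusted p = 8.62e-13 and 1.67e-08). Cyp2c50 measured 42.7, 107 and 220 RPKM in KO and 193, 361 and 436 RPKM in WT. Cyp2c40, which is also higher in female liver, measured 27.5, 47.0 and 132 RPKM in KO and 115, 175 and 201 RPKM in WT. In both genes the highest KO liver overlapped the WT range. Cyp2c38 fell by 2.00, at 5.75, 14.0 and 24.3 RPKM in KO and 22.1, 30.4 and 33.6 RPKM in WT. Its day 0 levels, 3.78 and 4.58 RPKM in KO and 4.09 and 7.93 RPKM in WT, were also below both late medians. Cyp2c29, a phenobarbital-inducible epoxygenase, fell by 1.74, with -1.08 without WT day 13 and -1.09 without KO day 13. Cyp2c37 fell by 1.34, and Cyp2c70, which makes the muricholic acids of mouse bile, fell by 1.22. Without either library of day 13 these last 2 calls were lost, with -0.82 and -0.83 for Cyp2c37 and -0.76 for Cyp2c70. Cyp2c68, not called in any window, measured 94.4, 172 and 249 RPKM in KO and 186, 209 and 217 RPKM in WT on days 10 to 14.

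The Cyp2c genes that rose were others. Cyp2c55, a gene induced by ligands of CAR and PXR, measured 2.89, 9.36 and 10.0 RPKM in KO and 0.707, 0.998 and 1.70 RPKM in WT on days 6 to 9. The groups did not overlap, and it rose by 2.76 ± 0.34 (adjusted p = 1.51e-07), and by 1.82 ± 0.42 on days 10 to 14 (adjusted p = 0.000494). Its earlier rise on days 3 to 5 of 0.99 ± 0.40 (adjusted p = 0.0402) ranged from 0.48 to 1.50 and was lost on leaving out KO day 3 replicate 2, KO day 4 replicate 1, KO day 5 replicate 1, either WT library of day 3, WT day 4 replicate 1 or WT day 5 replicate 2, and the highest value came without KO day 3 replicate 1. Cyp2c44, an epoxygenase, rose by 0.92 ± 0.15 on days 1 to 2 and stood at 245, 290 and 334 RPKM in KO and 97.4, 137 and 163 RPKM in WT on days 3 to 5. Cyp2c39, which hydroxylates retinoic acid, fell by 1.45 ± 0.31 on days 1 to 2 (adjusted p = 0.00247) and rose by 0.81 on days 10 to 14. Its late levels were 5.72, 8.72 and 12.2 RPKM in KO and 1.94, 2.71 and 3.80 RPKM in WT, and the late call was lost, at 0.66, without either library of day 10 and, at 0.62, without either of day 11.

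Several Cyp2c genes share sequence to an extent that limits these separate values. Stretches of 50 bases within 2 mismatches of another Cyp2 gene made up 98.2% of Cyp2c40, 96.6% of Cyp2c67, 96.9% of Cyp2c68 and 89.6% of Cyp2c69. The share was 64.2% in Cyp2c54, 0.719% in Cyp2c55 and 0 in Cyp2c44 and Cyp2c70. Cyp2c67 rose on days 6 to 9 by 0.99 ± 0.13 (adjusted p = 2.26e-07), while Cyp2c69, with most of its stretches shared, fell. Cyp2c65 was listed at 0 in many libraries and reached 0.0401 to 0.215 RPKM in KO livers and at most 0.0215 RPKM in WT livers on days 10 to 14. The pseudogene Cyp2c53-ps was listed at 0 in 5 of the 6 late KO livers and reached 0.120 RPKM in the late WT livers.

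None of the 10 Cyp2d genes was called on day 0 or on days 1 to 2, and most were higher in KO on days 3 to 9. Of 10 members, 8 rose and none fell on days 3 to 5 with a median change of 0.56, 6 rose and 2 fell on days 6 to 9, and 4 rose and 3 fell on days 10 to 14 with a median of 0.11. Of all genes, 26.5%, 35.1% and 38.6% rose and 9.61%, 18.8% and 11.1% fell in these windows. The late share of Cyp2d rises was near that of all genes. Cyp2d9, a testosterone hydroxylase that is higher in male liver, measured 557 and 538 RPKM in KO and 538 and 603 RPKM in WT on day 0. By days 3 to 5 it measured 345, 566 and 640 RPKM in KO and 139, 267 and 313 RPKM in WT, a rise of 0.86 ± 0.19 (adjusted p = 0.000492). On days 10 to 14 the levels were 386, 455 and 735 RPKM in KO and 61.0, 203 and 252 RPKM in WT, again without overlap, and the rise was 0.78 ± 0.20 (adjusted p = 0.00133), lost at 0.31 without either library of day 10. The late median of WT livers was thus farther from the day 0 levels than that of KO livers.

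Cyp2d12 rose by 1.22 ± 0.21, 2.07 ± 0.18 and 1.13 ± 0.22 in the last 3 windows (adjusted p = 2.58e-05, 2.93e-10 and 6.88e-05). Its levels on days 6 to 9 were 3.03, 9.63 and 19.7 RPKM in KO and 1.24, 1.78 and 2.41 RPKM in WT. Leaving out either library of day 10 lowered its last value to 0.58. Cyp2d34 rose by 1.01 ± 0.38 on days 3 to 5 and by 1.27 ± 0.41 on days 10 to 14 (adjusted p = 0.0307 and 0.00775). The first call was lost without any of 7 libraries of days 3 to 5, WT day 3 replicate 2, both of WT day 4, WT day 5 replicate 2, KO day 3 replicate 2, KO day 4 replicate 1 and KO day 5 replicate 2, and the second, at 0.69, without either library of day 10. On day 0 Cyp2d34 measured 4.33 and 0.221 RPKM in KO and 3.55 and 3.69 RPKM in WT. Cyp2d22 measured 99.9, 124 and 145 RPKM in KO and 48.5, 62.9 and 64.1 RPKM in WT on days 10 to 14, a rise of 0.37 relative to the median gene. That call was lost, at 0.14, without either library of day 10, and the value was 0.57 without either of day 13. Cyp2d10 and Cyp2d11 rose by 0.44 and 0.40 on days 3 to 5, and neither was called on days 10 to 14. In RPKM, all late KO livers nevertheless stood above all late WT livers for both genes. Cyp2d10 measured 389, 421 and 518 RPKM in KO and 174, 253 and 263 RPKM in WT. Cyp2d11 measured 27.2, 29.6 and 37.8 RPKM in KO and 12.6, 17.8 and 18.6 RPKM in WT. Cyp2d26 was called higher on days 3 to 5, at 0.30, but lost that call without WT day 3 replicate 1, WT day 4 replicate 1, WT day 5 replicate 1 or the second KO replicate of day 3, 4 or 5.

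Cyp2d13 and the pseudogene Cyp2d37-ps fell late. Cyp2d13 measured 8.36, 10.8 and 30.8 RPKM in KO and 57.1, 66.4 and 71.3 RPKM in WT on days 10 to 14, a change of -2.92 ± 0.20 (adjusted p = 2.06e-12). Cyp2d37-ps measured 2.52, 10.1 and 29.1 RPKM in KO and 33.9, 46.8 and 47.3 RPKM in WT, a change of -2.88 ± 0.19 (adjusted p = 1.23e-12). For both, all late KO livers stood below all late WT livers. Cyp2d40 rose by 0.75 on days 3 to 5, at 37.8, 59.6 and 61.1 RPKM in KO and 22.2, 26.4 and 27.5 RPKM in WT, and fell by 1.59 on days 10 to 14.

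**Figure D4:**
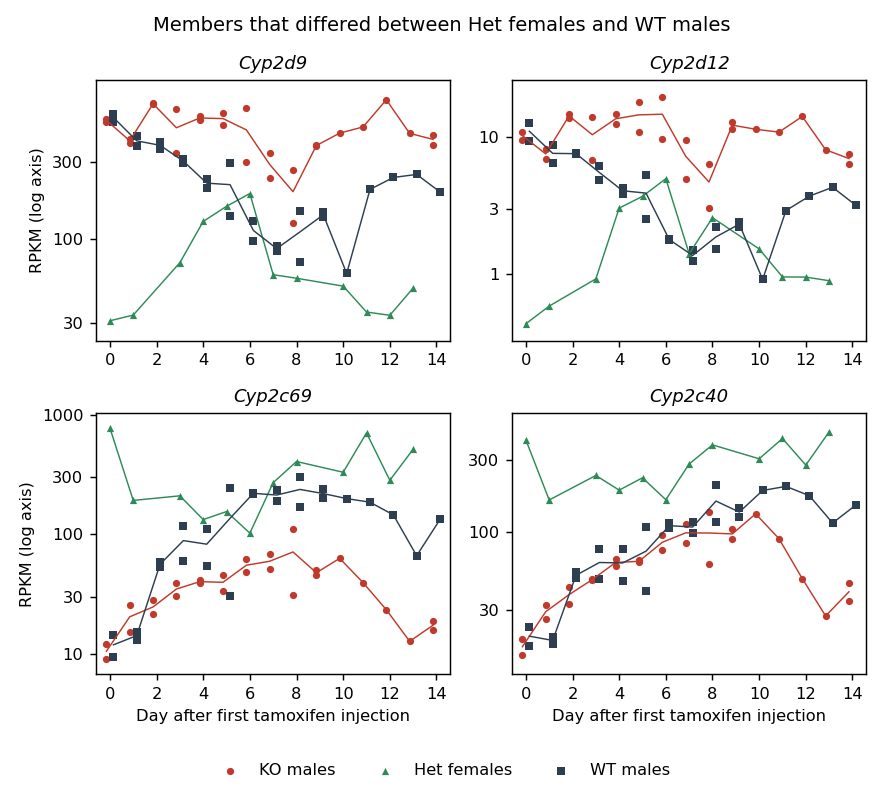
Levels in RPKM on log axes, by day, of Cyp2d9, Cyp2d12, Cyp2c69 and Cyp2c40 in single KO, Het and WT livers. On days 10 to 14 the KO livers lie at 386 to 735 RPKM for Cyp2d9, above the WT livers, and at 12.7 to 62.8 RPKM for Cyp2c69, below them.

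Cyp2e1, which oxidises ethanol and acetaminophen and lies near the central vein, fell slowly. It measured 1150, 1391 and 1775 RPKM in KO and 1623, 1889 and 2479 RPKM in WT on days 3 to 5, and 391, 830 and 1418 RPKM in KO and 1152, 2172 and 2737 RPKM in WT on days 10 to 14. The groups overlapped in both windows. Its changes were -0.75 ± 0.15 and -1.99 ± 0.16 (adjusted p = 0.000194 and 5.82e-11). The first call was lost, at -0.65, without KO day 3 replicate 2. The change between the windows was -1.23 ± 0.22 (adjusted p = 4.57e-05), and it was lost, at -0.68, without either library of day 13, at -0.96 without WT day 14, and at -0.67 without the 2 KO libraries that stood apart.

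Cyp2f2, which activates naphthalene and lies near the portal vein, was higher in KO than in WT from days 1 to 2 on. On day 0 it measured 583 and 611 RPKM in KO and 442 and 599 RPKM in WT. On days 1 to 2 it measured 230, 394 and 490 RPKM in KO and 116, 174 and 240 RPKM in WT. Cyp2f2 was thus below its day 0 levels in both genotypes then, and further below in WT. Its rises were 0.91 ± 0.20, 0.95 ± 0.16, 0.93 ± 0.14 and 0.83 ± 0.17 in the 4 windows after day 0, in time order (adjusted p = 0.00306, 2.96e-05, 2.82e-06 and 0.000144). On days 6 to 9 it measured 433, 591 and 724 RPKM in KO and 203, 275 and 347 RPKM in WT, without overlap. On days 10 to 14 it measured 379, 724 and 962 RPKM in KO and 99.2, 199 and 482 RPKM in WT, with overlap. The last rise was 0.34 to 0.35 and lost its call without day 10, and it was 1.48 without day 13, the whole day being dropped in each case.

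Of the other single-gene subfamilies, Cyp2s1, Cyp2g1 and Cyp2u1 had calls and Cyp2r1 had none. Cyp2s1, an enzyme of epithelia, measured 1.11, 4.12 and 8.31 RPKM in KO and 0.207, 0.255 and 0.593 RPKM in WT on days 10 to 14, a rise of 2.48 ± 0.35 (adjusted p = 7.71e-07). Cyp2g1, known from the olfactory mucosa, fell by 2.21 ± 0.39 on days 3 to 5 (adjusted p = 3.93e-05), at 0.0701, 0.154 and 0.284 RPKM in KO and 0.308, 0.434 and 1.18 RPKM in WT. It rose by 0.95 ± 0.41 on days 10 to 14 (adjusted p = 0.0433), at 1.35, 2.05 and 4.17 RPKM in KO and 0.338, 0.799 and 1.12 RPKM in WT, a call that was lost, at 0.78 to 1.04, on leaving out either library of days 10, 11, 12 or 13, WT day 14 or KO day 14 replicate 1. Cyp2u1, a fatty acid hydroxylase, fell by 1.22 ± 0.15 on days 3 to 5 (adjusted p = 4.71e-07). It measured 1.46, 2.49 and 3.29 RPKM in KO and 3.35, 4.15 and 8.23 RPKM in WT, without overlap. Its late change of 0.34 ± 0.17 relative to the median gene did not pass, although the late KO livers, at 6.77, 10.7 and 19.2 RPKM, stood above the WT livers, at 4.27, 4.40 and 6.19 RPKM. Cyp2r1 measured 20.0, 26.5 and 32.4 RPKM in KO and 17.8, 18.9 and 23.2 RPKM in WT on days 10 to 14, with overlapping groups.

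The change of KO minus WT between days 3 to 5 and days 10 to 14 passed for 24 members, 9 upward and 15 downward, against 28.1% and 10.6% of all genes. Upward changes included 3.16 ± 0.57 for Cyp2g1 and 2.42 ± 0.48 for Cyp2s1 (adjusted p = 4.62e-05 and 0.000141). Downward changes included -3.27 ± 0.27 for Cyp2d13, -2.74 ± 0.22 for Cyp2c54 and -2.70 ± 0.26 for Cyp2d37-ps (adjusted p = 4.47e-10, 1.74e-10 and 5.11e-09). For Cyp2f2 it was -0.11 ± 0.24, which did not pass (adjusted p = 0.707). The downward calls of Cyp2c29, Cyp2c44, Cyp2c50, Cyp2c68 and Cyp2c70 were lost without either library of day 13, and those of Cyp2c29, Cyp2c68 and Cyp2c69 also without single libraries of other days, WT day 14 among them.

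**Figure D5:**
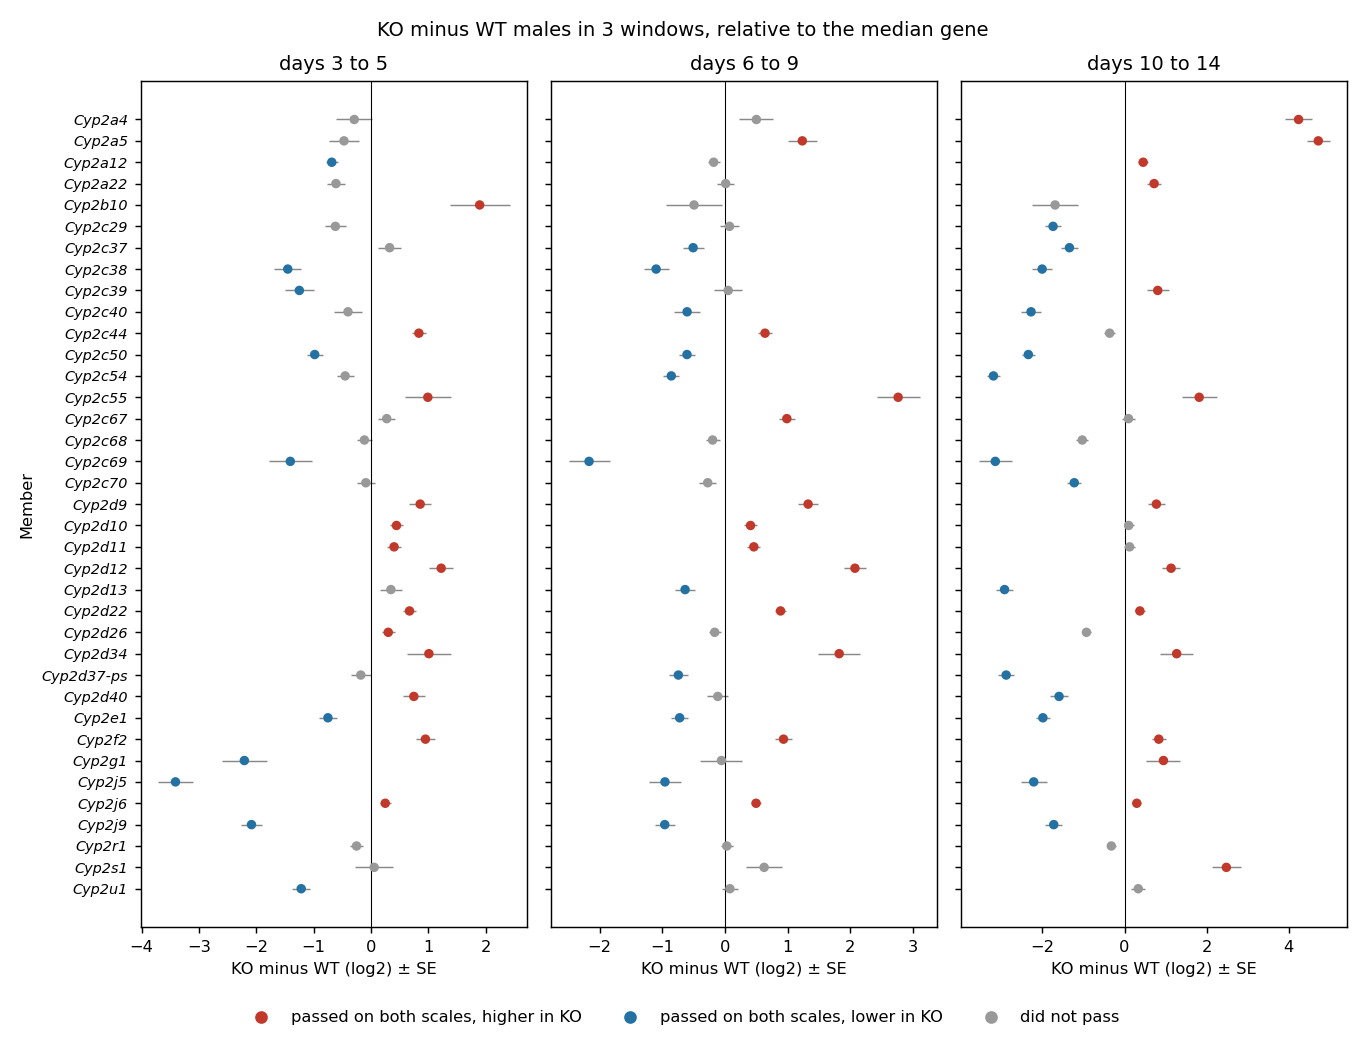
Change in KO relative to WT with its standard error for 37 members on days 3 to 5, 6 to 9 and 10 to 14, in log2 units relative to the median gene, red for members that rose, blue for members that fell and grey for those that did not pass. The range widens to between -3.19 for Cyp2c54 and 4.72 for Cyp2a5 in the last window.

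Members also changed with time within each genotype, and these comparisons share libraries with those above. In KO, days 3 to 5 against day 0 gave 5 rises and 4 falls, against 22.4% and 2.56% of all genes. Cyp2b10 rose there by 6.39 ± 0.74 (adjusted p = 2.93e-07), while the falls were -3.81 ± 0.42 for Cyp2j5, -2.74 ± 0.22 for Cyp2u1, -2.42 ± 0.27 for Cyp2j9 and -1.36 ± 0.21 for Cyp2e1 (adjusted p = 1.78e-07, 1.11e-09, 1.54e-07 and 2e-05). The rises of Cyp2c40 (1.07) and Cyp2c39 (0.92) were lost without either KO library of day 0, that of Cyp2c37 (0.96) and the fall of Cyp2e1 without KO day 0 replicate 1, and the rise of Cyp2c68 (0.67) without KO day 0 replicate 2. The Cyp2c39 rise was also lost, at 0.65 to 0.88, without KO day 3 replicate 1, KO day 4 replicate 2 or KO day 5 replicate 2. The median gene was higher by 0.73 on the deposited scale, where 14 members were higher and 4 lower, and relative to the median gene alone 5 were higher and 12 lower.

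Days 10 to 14 against day 0 in KO gave 8 rises and 9 falls, against 35.6% and 4.89% of all genes. Cyp2a4 rose by 6.98 ± 0.45, its day 0 levels being 5.00 and 4.50 RPKM, and Cyp2a5 by 3.92 ± 0.38 (adjusted p = 1.51e-12 and 2.1e-09). Cyp2c39 rose by 3.05 and Cyp2g1 by 3.03, and the largest falls were -3.56 for Cyp2c54, -3.37 for Cyp2c29, -3.27 for Cyp2d13 and -3.04 for Cyp2d40. Cyp2b10, at 2.25, was lost at 1.38 without KO day 0 replicate 1 and at 1.73 without the 2 KO libraries that stood apart. Cyp2j5, at -2.50, and Cyp2c70, at -1.87, were lost on the deposited scale without KO day 0 replicate 1 or KO day 13. The call of Cyp2b13, a gene listed at 0 in 1 KO library of day 0, was lost without that library. On the deposited scale alone the split was 20 higher and 9 lower, and relative to the median gene alone 8 higher and 21 lower.

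In WT, 5 members rose and 5 fell on days 3 to 5 against day 0, against 12.4% and 0.794% of all genes, and 8 rose and 6 fell on days 10 to 14, against 16% and 0.884% of all genes. The largest late falls were those of Cyp2d34 (-2.89 ± 0.56), Cyp2d12 (-2.79 ± 0.30), Cyp2d9 (-2.49 ± 0.27) and Cyp2f2 (-1.97 ± 0.24), with adjusted p of 0.000347, 4.24e-07, 5.19e-07 and 1.62e-06. The largest late rises were those of Cyp2b10 (3.43 ± 0.75), Cyp2c69 (2.80 ± 0.55), Cyp2a4 (2.65 ± 0.45) and Cyp2c40 (2.28), apart from Cyp2b13, whose WT libraries of day 0 were at 0.0408 RPKM and listed at 0 and whose call was lost without the library listed at 0. In the earlier window the calls of Cyp2c38, Cyp2c39, Cyp2c40, Cyp2c69, Cyp2d12 and Cyp2d34 were lost without WT day 0 replicate 2, those of Cyp2c40, Cyp2c67 and Cyp2d34 without WT day 0 replicate 1, and that of Cyp2d34 also without the second replicate of day 3, 4 or 5. In the later window those of Cyp2c38, Cyp2c39, Cyp2c68 and Cyp2d40 were lost without WT day 0 replicate 2, those of Cyp2c29 and Cyp2d40 without WT day 0 replicate 1, and that of Cyp2d40 also without WT day 10. On the deposited scale alone 10 members were higher and 5 lower on days 3 to 5 and 11 higher and 6 lower on days 10 to 14. Relative to the median gene alone, the counts were 5 and 15 on days 3 to 5 and 8 and 21 on days 10 to 14. In the WT course, days 3 to 5 against day 0 gave 7 of 10 calls within B_2 and 0 within B_1, and days 10 to 14 gave 1 of 14 within B_1.

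Set against WT males on days 0 to 1, the 2 Het female livers gave 10 rises and 4 falls, against 4.72% and 1% of all genes, and sex and genotype cannot be told apart in this comparison. Cyp2d12 changed by -4.68 ± 0.41, Cyp2d9 by -4.41 ± 0.36 and Cyp2d34 by -4.05 ± 0.55 (adjusted p = 7.55e-10, 1.99e-10 and 4.51e-06). Cyp2b10 rose by 5.26 ± 0.78, Cyp2a4 by 4.91 ± 0.47, Cyp2c69 by 4.40 ± 0.61 and Cyp2c40 by 3.23 ± 0.38 (adjusted p = 1.84e-05, 5.51e-09, 6.76e-06 and 4.53e-07). Cyp2b13 measured 137 and 76.6 RPKM in Het and at most 0.0542 RPKM in WT on these days. On the deposited scale 19 members were higher and 4 lower. Over time, days 10 to 13 against days 0 to 1 in Het gave no rise and 3 falls, against 15.8% and 0.557% of all genes. These were Cyp2c29 (-2.61 ± 0.44), Cyp2c54 (-1.94 ± 0.27) and Cyp2c37 (-1.57 ± 0.31), with adjusted p of 5.45e-05, 8.71e-06 and 0.000307, the last lost without the Het library of day 0. On the deposited scale 7 members were higher and 3 lower, and relative to the median gene alone none was higher and 12 were lower.

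Cyp2d9 and Cyp2a4 illustrate how these courses sat beside each other. Cyp2d9 measured 31.0 to 192 RPKM over the 12 Het livers, under the late KO range of 386 to 735 RPKM, and 61.0 to 252 RPKM in late WT males. Cyp2a4 measured 80.5 to 514 RPKM over the Het livers, also under the late KO range of 581 to 4174 RPKM. No gene of the family was compared between late KO males and females by a test.

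Genes that serve or control the P450s were taken from 7 lists. Of 16 redox partners and genes of heme synthesis and breakdown, 4 rose and 1 fell on days 3 to 5, and 5 rose and 3 fell on days 10 to 14, with a late median of -0.17. Over all genes 26.5% rose and 9.61% fell in the earlier window and 38.6% and 11.1% in the later one, and the shares of this list lay near these in the earlier window. Por, the electron donor of the microsomal P450s, rose by 0.81 ± 0.16 on days 3 to 5 (147 RPKM in KO and 68.2 RPKM in WT, adjusted p = 0.000148). Ppox, an enzyme of heme synthesis, fell by 2.45 ± 0.08 on days 10 to 14 (3.05 RPKM in KO and 9.20 RPKM in WT, adjusted p = 2.52e-18), and Blvrb, which reduces biliverdin, rose by 2.04 ± 0.12 (548 RPKM in KO and 65.6 RPKM in WT, adjusted p = 1.15e-13).

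Of 28 transcriptional regulators of liver P450 genes, 7 rose and 3 fell on days 3 to 5, and 2 rose and 5 fell on days 10 to 14, with a late median of -0.50. The early counts were near the shares of all genes, 26.5% and 9.61%, while the late ones compare with 38.6% and 11.1%. Stat5a fell by 1.89 ± 0.15 on days 3 to 5 (5.10 RPKM in KO and 15.4 RPKM in WT, adjusted p = 3.69e-10). Its close relative Stat5b fell by 1.34 ± 0.09 on days 10 to 14 (16.8 RPKM in KO and 24.7 RPKM in WT, adjusted p = 3.5e-12). Ghr, the growth hormone receptor, fell by 1.52 ± 0.09 on days 10 to 14 (81.6 RPKM in KO and 137 RPKM in WT, adjusted p = 1.76e-13). Nfe2l2, the oxidative stress factor NRF2, rose by 1.24 ± 0.11 (117 RPKM in KO and 26.8 RPKM in WT, adjusted p = 2.13e-10). Among 9 tested P450 genes of families 1 and 3, 3 rose and none fell on days 10 to 14, near the 38.6% of all genes that rose, with Cyp1a2, a caffeine-metabolising enzyme, up by 0.93 ± 0.19 (516 RPKM in KO and 159 RPKM in WT, adjusted p = 0.000138).

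Of 10 male-biased liver genes outside the P450s, 1 rose and 5 fell on days 10 to 14 (median -1.56), and of 8 tested female-biased ones, 1 rose and 4 fell (median -1.28). Against day 0, the male-biased genes gave 0 rises and 8 falls in KO and 0 and 4 in WT (medians -3.30 and -1.38). The female-biased ones gave 5 rises and 0 falls in each genotype (medians 1.29 in KO and 3.65 in WT). Of all genes, 35.6% rose and 4.89% fell in KO, and 16% and 0.884% in WT. Of the Cyp2 genes named above as sex-biased, Cyp2d9 (male) and Cyp2a4 (female) rose in KO against WT in those days. Cyp2c69 and Cyp2c40 (female) fell, and Cyp2b13 (female) was not called. Of 14 pericentral genes outside Cyp2, 10 rose and none fell (median 0.67), with Rhbg, an ammonium transporter, up by 1.89 ± 0.17 (33.5 RPKM in KO and 5.25 RPKM in WT). Of 12 periportal genes, Alb among them, 2 rose and 10 fell (median -1.90), and Hal, which degrades histidine, changed by -4.21 ± 0.24 (21.7 RPKM in KO and 177 RPKM in WT). Cyp2e1 and Cyp2f2 went opposite to the majority of the lists of their zones, by the values given above. Over all genes 38.6% rose and 11.1% fell on days 10 to 14, and the late median was 0.08.

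Markers of other cells were also tested on days 10 to 14, when 38.6% of all genes rose. Stellate cell markers rose in 7 of 7 (summed 263 to 656 RPKM in KO and 115 to 165 RPKM in WT), bile duct markers in 4 of 6 tested (110 to 934 RPKM in KO and 38.3 to 53.6 RPKM in WT), macrophage markers in 4 of 10 (942 to 2002 RPKM in KO and 266 to 853 RPKM in WT) and endothelial markers in 3 of 7 (135 to 236 RPKM in KO and 56.2 to 137 RPKM in WT). The counts for macrophages and endothelium were near the share of all genes. Of 12 hepatocyte markers, which did not include Alb, none rose and 4 fell, with summed levels of 35361 to 59566 RPKM in KO and 41074 to 45784 RPKM in WT. Alb, which supplies the sequences that drive Cre, measured 2958 to 23706 RPKM in KO and 53113 to 71644 RPKM in WT. The part of these cell types in the changes of the Cyp2 genes was not tested.

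The promoters of 30 members, from 250 bases before to 50 after the start, were searched on both strands for 4 motifs. The nuclear receptor element AGGTCA was in 9 of them (30%), namely those of Cyp2a4, Cyp2a5, Cyp2b13, Cyp2c29, Cyp2c39, Cyp2c70, Cyp2d40, Cyp2f2 and Cyp2j5, and in 16.3% of all 32851 promoters of that length. None held TTATGTAA (bound by PAR bZIP factors, in 0.938% of all promoters), TTCNNNGAA (STAT factors, 8.30%) or the motif of THAP11 and ZNF143, which bring HCF-1 to DNA (0.286%). The AGGTCA matches of Cyp2a4, Cyp2a5 and Cyp2d40 lay 30, 29 and 32 bases after the start. As the Cyp2a4 and Cyp2a5 promoters are near copies, their matches are not separate cases. A match is a description of these letters and not a binding site.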

How the data were processed

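Poly(A) RNA of whole freeze-clamped liver was sequenced with strand as single-end reads of 50 nucleotides, per the labels' protocols. The submitters' processing notes name mm9, TopHat2 2.0.13, Bowtie 1.1.2 and edgeR, and the authors deposited log2 values of RPKM for 15616 genes. A constant of 8.90e-05 was recovered from the table's minimum of -13.4557, at which a gene is listed at 0 (5.02% of values). Levels in RPKM were obtained by undoing the logarithm and the constant. The submitters' scaling lets the median gene shift between libraries, which bears on every fold change.

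Tests used limma 3.58.1 in R 4.3.3, with an intensity trend, on values centred on each library's median. A count test had been allowed for but could not be applied to this unit. Testing was limited to genes that reached a log2 value of 0 in 4 libraries or more, 12221 in the 51 male libraries and 12380 in all 63. The male fit had 1 mean per genotype and day (21 residual degrees of freedom), and the fit of all 63 libraries had 29. Windows are means over days, and lone libraries of days 10 to 14 are assumed to vary like replicated ones. P-values were two-sided and adjusted by Benjamini-Hochberg over all tested genes of a comparison. A call required an adjusted p under 0.05 with the same sign on centred and deposited values, which undercounts falls where the median gene is higher. In simulated data on days 3 to 5, 46 of 50 genes raised by 1 log2 unit and 42 of 50 lowered by 1 were recovered. No label says how livers of 1 group were otherwise related. In the male fit, p-values measure the spread between replicate livers of the same genotype and day, pooled over days. A lone liver of its genotype and day adds nothing to that spread. On days 10 to 14 only the KO livers of day 14 were replicated. P-values of that window thus rest mainly on earlier days and do not measure the spread between the late livers.

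Members and lists were chosen with earlier results of these data known. Named members were Cyp2a4, Cyp2a5, Cyp2b10, Cyp2e1, Cyp2f2 and Cyp2j5, the 6 largest rises and falls among calls in each KO and WT window, up to 4 each way in other comparisons, and up to 4 genes of smallest p in each list. Other members are given as values chosen after these were seen. Marker lists of neutrophils, lymphocytes and pancreas gave 0 calls of 4, 7 and 1 tested genes on days 10 to 14, and none of 5 kidney markers was in the table. Stretches of 50 bases were compared allowing 2 mismatches, with transcripts and promoters of RefSeq. One library, an unnumbered column of KO day 14, was assigned by its name. A further gene matching the pattern is not reported here. Counting limits cover counting error only. The alternatives were deposited values, no filter, log2(value + 1), quantile normalization, a replicate block, window libraries alone, each B code and each library left out. Where the library left out was the only one of its genotype and day, comparisons of KO with WT lost that whole day.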

Additional observations from a re-analysis of the deposited data

Results flagged for a closer look

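The difference between KO and WT itself changed between days 3 to 5 and days 10 to 14 for 24 members by a test of that change (limma on all tested genes, log2 units relative to the median gene), and the 10 of them taken by the naming rule are given here. The Cyp2a pair moved upward, Cyp2a5 by 5.19 ± 0.39 and Cyp2a4 by 4.53 ± 0.46. Cyp2g1 moved upward by 3.16 ± 0.57 and Cyp2s1 by 2.42 ± 0.48. Cyp2j5, lower in KO in both of these windows, moved upward by 1.20 ± 0.44. That call was lost without KO day 5 replicate 1, KO day 3 replicate 2, or the whole of day 10, 11 or 12.

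Downward changes of the difference were -3.58 ± 0.76 for Cyp2b10, -3.27 ± 0.27 for Cyp2d13, -2.74 ± 0.22 for Cyp2c54 and -2.70 ± 0.26 for the pseudogene Cyp2d37-ps. For Cyp2e1 the change was -1.23 ± 0.22, and it was lost without either library of day 13, WT day 14 or the 2 KO libraries that stood apart.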

How the results depend on the processing

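Counts of called members moved by over 1.5 times, or from 0, in the following settings, and the cause was not tested except where fewer libraries were used. Within code B_1, fewer libraries gave 0, 3 and 8 calls in the windows from days 1 to 2 to days 6 to 9, 4 for KO days 3 to 5 against day 0, 0 for WT days 3 to 5 and 1 for WT days 10 to 14 against day 0, and within code B_2 day 0 gave 1 call, Cyp2d34. On the deposited scale 18 members passed for KO days 3 to 5 and 29 for KO days 10 to 14 against day 0, 10 for Het over time and 23 for Het against WT, where the median gene was shifted upward. Leaving out 1 library gave 0 to 1 calls on day 0, 4 to 13 for WT days 3 to 5 and 9 to 16 for WT days 10 to 14 against day 0, the lowest of both without WT day 0 replicate 2 and the 1 call of day 0 without KO day 0 replicate 1. Without the 2 KO libraries that stood apart, an alternative chosen after seeing the data, the change of Cyp2f2 between windows turned to 0.65, and with log2(value + 1) Cyp2b13 turned to -0.076 in KO days 10 to 14 against day 0. The other settings kept each count within 1.5 times. The main fit did not pair livers by replicate number. Correlations of deviations between same-numbered KO and WT livers were -0.055 to 0.286 over days 0 to 9. The highest, 0.286 on day 3 and 0.182 on day 7, came on days whose replicates differed in B code. On days 2 and 9, whose replicates shared a code, they were -0.005 and -0.055. The replicate block gave 0, 4, 18, 18 and 26 calls in the 5 windows, 19 for the change between windows, and 9, 17, 10 and 15 in the comparisons with day 0. Depth of counting limits only members near 1 read, such as Cyp2c65, Cyp2c53-ps and Cyp2b13.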
